A study of Mus musculus with 5 samples.

Results

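Cyclins, cyclin-dependent kinases (CDKs), CDK inhibitors and other regulators of the cell cycle were followed in RNA that anti-myc beads retained from mouse NIH/3T3 fibroblasts. The list held 48 genes by symbol, and every array probe set annotated to one of these symbols alone was taken. This gave 108 probe sets for 47 of the 48 genes, among 45101 probe sets and 18194 genes in all. Ccnb1 had no probe set annotated to it alone and could not be followed. For each gene the probe set of highest mean signal over the arrays was used, and its other probe sets are given beside it where they differ. For 14 genes there was a single probe set and for 33 there were several, up to 7.

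NIH/3T3 is an established line of immortalised mouse embryo fibroblasts. The labels give stable integration of the same vectors for the cells of all arrays. These were pBSwitch and pSLHGC-MYC-AUF1 p42, a mifepristone-inducible retroviral pair for myc-tagged mouse AUF1 p42, and infected cells had been selected with blasticidin while 1 nM mifepristone was present. Ribonucleoprotein immunoprecipitates (RNP-IPs) were made with anti-c-myc agarose beads, 2 from cells labelled as induced with 1 nM mifepristone for 24 h and 2 from cells labelled as not induced. One more array held total RNA of cells with these vectors, and the labels do not say whether those cells had been induced. The study calls the RNP-IPs labelled induced independent but names no separate cultures for either label, so the p-values below measure only the spread between these RNP-IPs.

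AUF1 is an RNA-binding protein that attaches to AU-rich and U-rich stretches, mostly in 3′ untranslated regions of mRNAs, and it is known to affect the stability of the mRNAs it binds. An RNP-IP measures which mRNAs come down with the tagged protein, together with what sticks to the beads. Progress through the cell cycle is driven by CDKs, which are active when a cyclin is bound. D-type and E-type cyclins take cells through G1 into S phase by phosphorylating the retinoblastoma family, which frees E2F transcription factors. Cyclins A and B with Cdk1 then carry cells through G2 into mitosis, CDK inhibitors restrain these kinases, and the Cdc25 phosphatases and Wee1 set their phosphorylation. Many of these mRNAs rise and fall with the cycle, and cyclin D1 and Cdkn2a mRNAs have been described as AUF1 targets.

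Hnrnpd, the gene of AUF1, ran against the labels. Its log2 signals were 6.72 and 7.39 with the induced label, 11.35 and 11.85 with the uninduced label and 10.60 in total RNA, and its other probe sets were lower in the RNP-IPs labelled induced as well. In an RNP-IP these signals read Hnrnpd mRNA retained by the beads, not the tagged protein. Which part of the transcript these probe sets read relative to the vector was not tested, so the groups are named by their labels throughout (an RNP-IP with the induced or the uninduced label), and every direction below holds for the arrays as labelled. All values are log2 signals after normalization by robust multiarray average (RMA), which gives all arrays nearly the same distribution (medians from 3.77 to 3.83). A higher signal is therefore a larger share relative to the rest of the array, not more RNA on the beads. Signals below 5 are called near background, and signals of different probe sets are not compared with each other.

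All 9 fibroblast markers looked up were above 5 on every array (from 5.64 for Pdgfra to 13.42 for S100a4), and 11 of 12 markers of other cell types were below 5 on all arrays (Epcam, at 6.66 to 6.99, was the exception). Probe sets at the 5′ ends of Gapdh and beta-actin mRNA differed between replicates. That of Gapdh was at 8.18 and 4.24 with the induced label, 3.65 and 7.81 with the uninduced label and 6.93 in total RNA. RNP-IP 2 labelled induced and RNP-IP 1 labelled uninduced were thus the low arrays, one in each group.

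Of the 47 cell cycle genes, 44 had a mean signal of at least 5 in at least one group. The other 3 were the CDK inhibitor Cdkn1c, the retinoblastoma relative Rbl2 and E2f4. Across genes, the signals of the 5 arrays spanned from 0.10 (E2f4) to 3.88 (Mcm5) on the log2 scale.

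**Figure D1:**
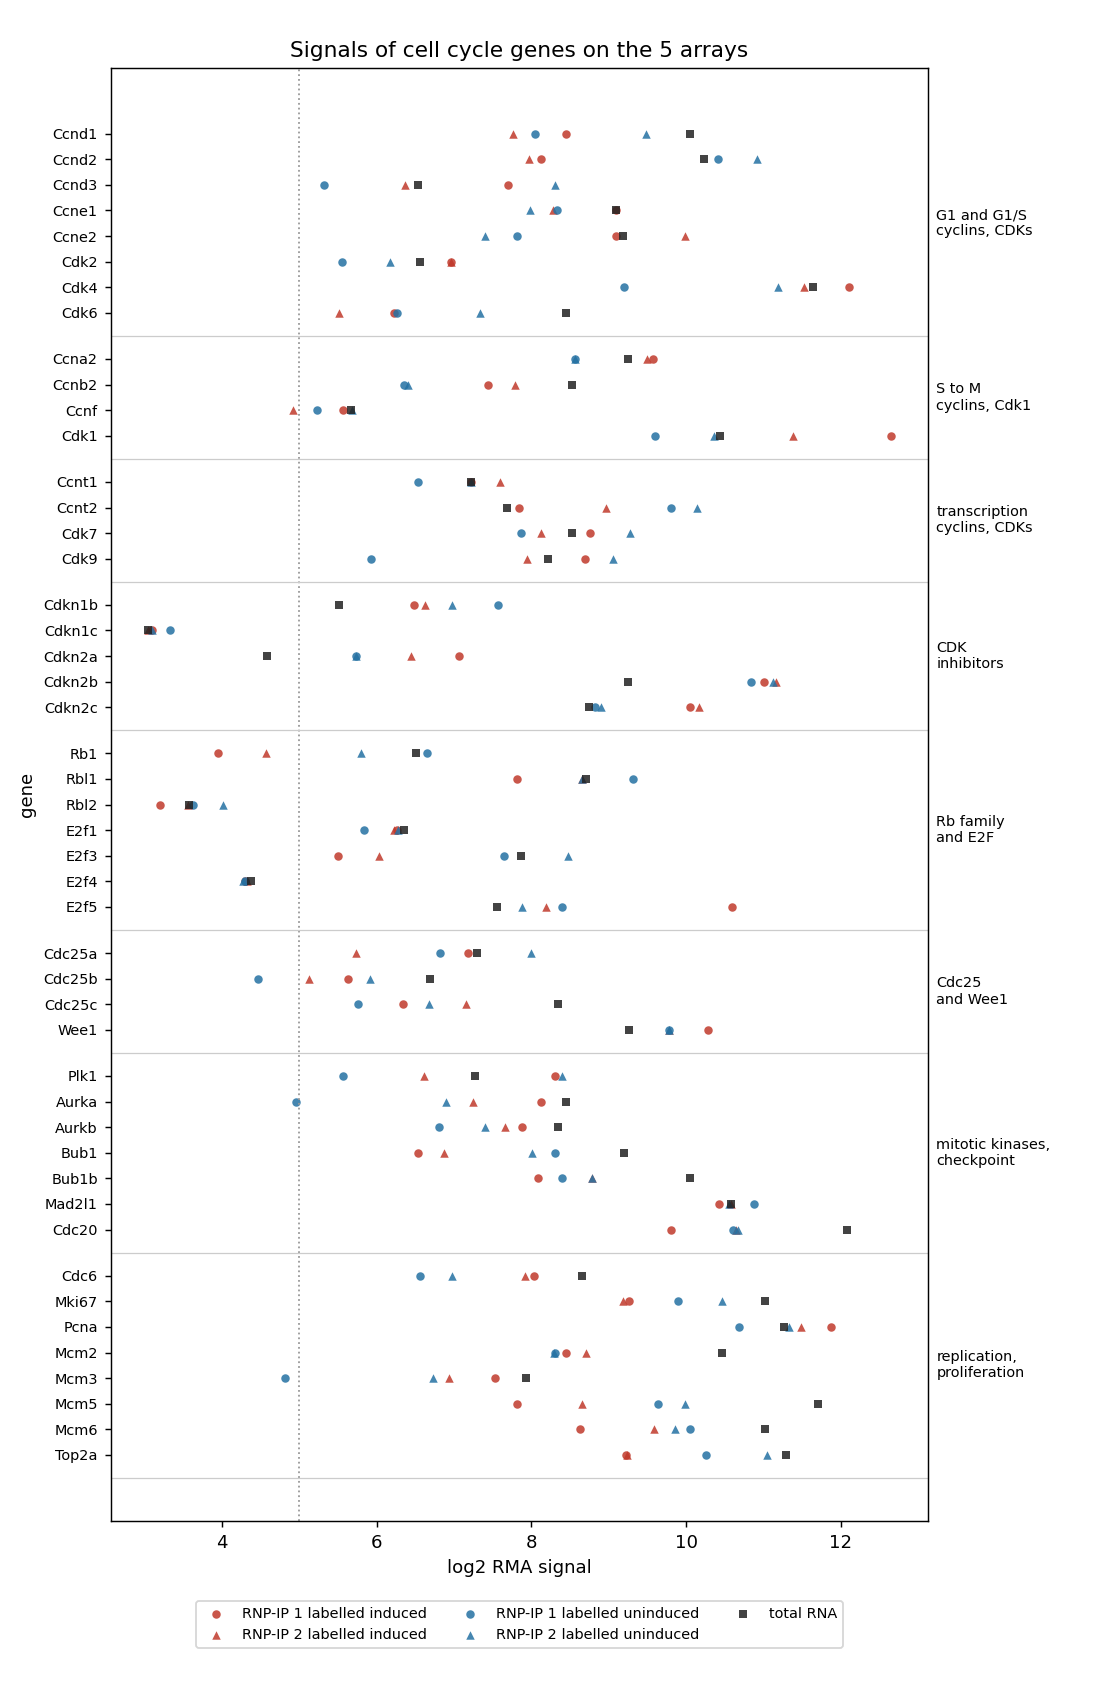
Log2 RMA signal (x axis) of the 47 cell cycle genes (y axis, by role) on each of the 5 arrays: red for the RNP-IPs labelled induced, blue for those labelled uninduced (circle for replicate 1, triangle for replicate 2) and black squares for total RNA. The dotted line is at 5, below which a signal is called near background. Ccnd2 shows both red points (8.12 and 7.97) below all 3 controls, Cdk1 shows them (12.65 and 11.38) above, and most replication genes have the square at the far right.

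The first comparison asked which mRNAs were enriched or depleted on the beads of the RNP-IPs labelled induced, against the 3 controls, namely both RNP-IPs labelled uninduced and total RNA. Cdk1 was called higher, and 6 genes were called lower: the G1 cyclin Ccnd2, the pocket protein gene Rb1, the transcription factor E2f3, the checkpoint kinase Bub1, the replicative helicase subunit Mcm5 and topoisomerase Top2a. A gene was called where limma gave a fold of 3 or more with an adjusted p below 0.5, the thresholds of the study, and at this p as many calls may be false as true. The 1 higher call among 47 genes (2.13%) stands beside 1.32% of all genes called higher. The 6 lower calls (12.8%) stand beside 2.36% of all genes called lower. Because most genes on the array were near background, the count was also made among genes with a mean signal of at least 6. There 5 of 40 cell cycle genes (12.5%) were called lower, beside 5.78% of 6401 genes, and 1 (2.50%) was called higher, beside 2.72%. No cell cycle gene and no probe set on the array reached an adjusted p under 0.05 in limma. At an unadjusted p under 0.05 there were 4 cell cycle genes higher (8.51%) and 7 lower (14.9%), beside 5.99% and 7.43% of all genes. With a mean signal of at least 6 these were 7.50% and 15.0% of 40 cell cycle genes, beside 9.76% and 16.0% of all such genes. The median log2 difference was -0.09 over the 47 genes and 0.00 over all genes, and 0.14 and -0.15 with a mean signal of at least 6.

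Both RNP-IPs labelled induced lay above all 3 controls for 6 of the 47 cell cycle genes (Cdk2, Ccna2, Cdk1, Cdkn2a, Cdkn2c and Pcna), beside 12.0% of all genes. They lay below all 3 controls for 10 of the 47 (Ccnd2, Cdk6, Rb1, Rbl2, E2f3, Bub1, Mki67, Mcm5, Mcm6 and Top2a), beside 13.4% of all genes, and overlapped the controls for 31. Rbl2 was near background on all arrays, and these shares were not counted among genes with a mean signal of at least 6. Ccnd2, Rb1 and E2f3 were called lower whichever of the 5 arrays was left out, and the other calls depended on single arrays. A log2 difference given for a lost call, here and below, is past 3-fold where its size is over 1.58. There the adjusted p ended the call. The call of Cdk1 ended without RNP-IP 1 labelled induced (log2 difference 1.25), RNP-IP 1 labelled uninduced (1.62) or RNP-IP 2 labelled uninduced (adjusted p = 0.627). That of Bub1 ended without RNP-IP 1 labelled induced (-1.63) or total RNA (-1.45), that of Top2a without RNP-IP 2 labelled uninduced (-1.55) or total RNA (-1.42), and that of Mcm5 without any one array (-2.62 to -1.58).

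**Figure D2:**
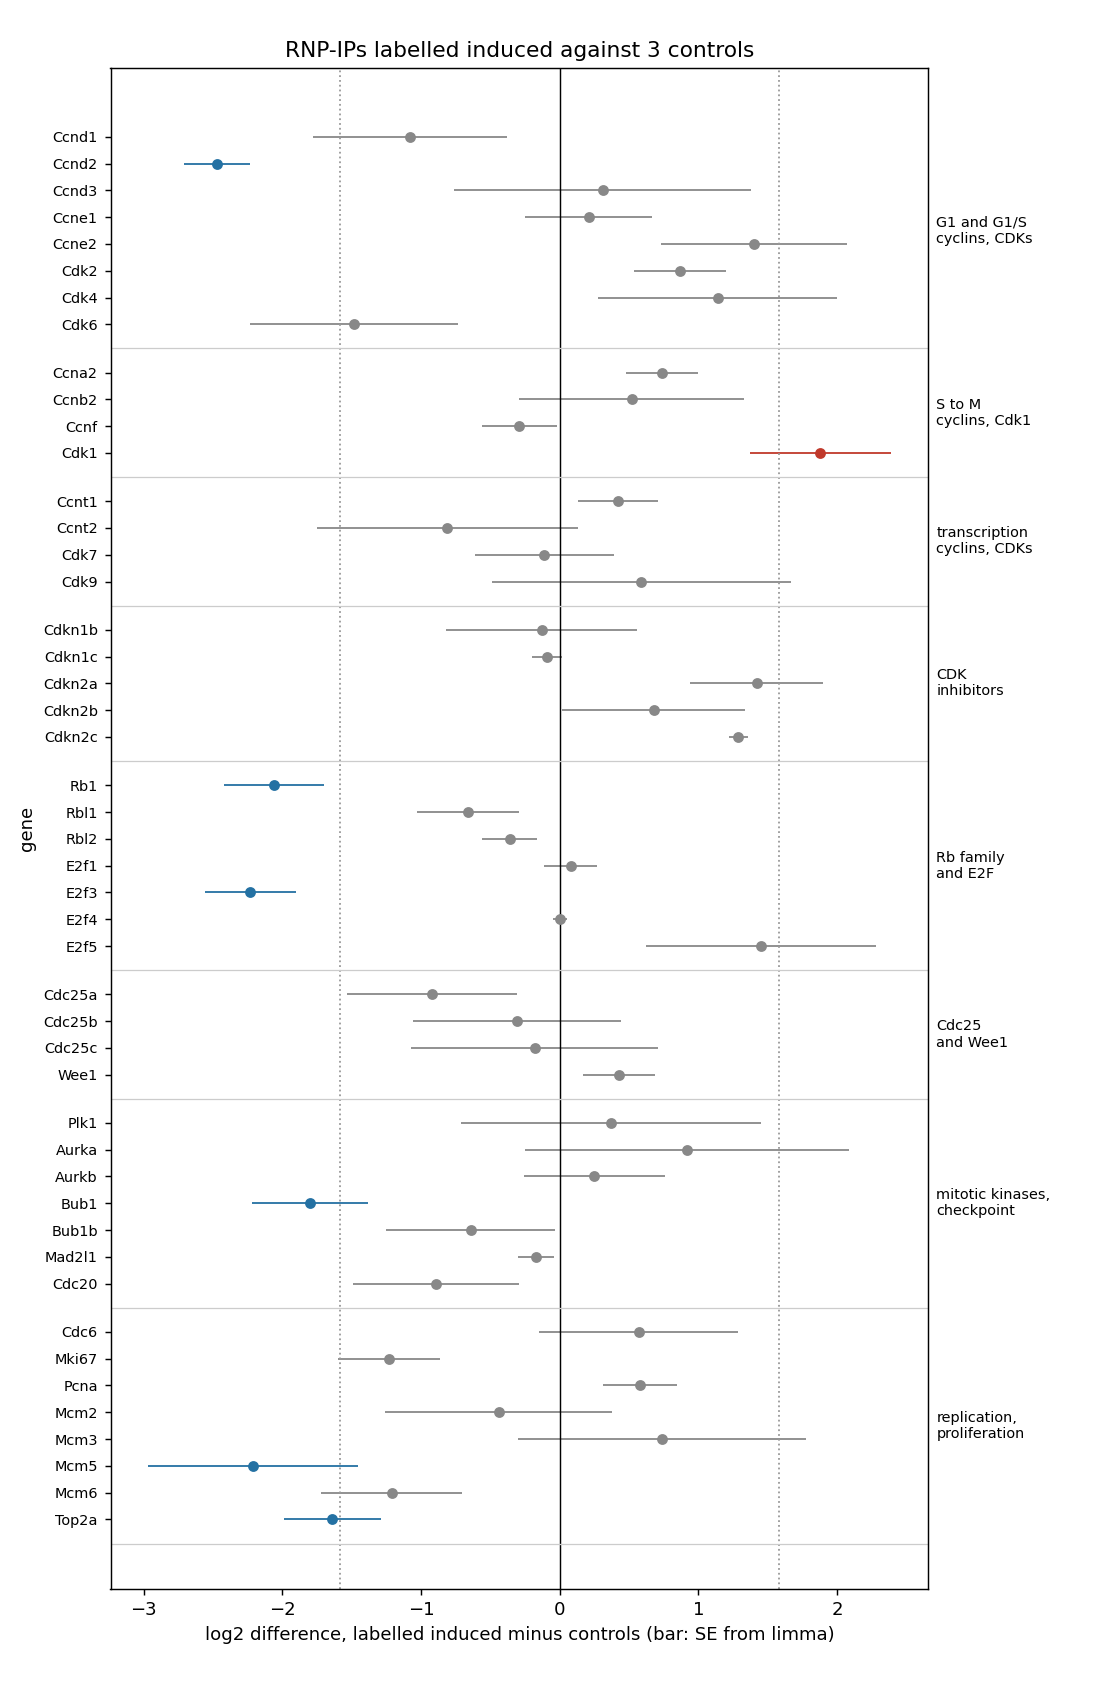
Log2 difference (x axis) between the 2 RNP-IPs labelled induced and the 3 controls for the 47 cell cycle genes (y axis, by role), with the standard error from limma as a bar. Red is the gene called higher (Cdk1), blue are the 6 called lower, grey are genes not called, and the dotted lines mark 3-fold. Called genes lie in 5 of the 8 role groups, and Ccnd2 is the lowest at -2.47.

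Against the RNP-IPs labelled uninduced alone, which leave out total RNA, 2 genes were called higher, Cdk1 and the G1/S cyclin Ccne2. This is 4.26% of the 47, beside 1.38% of all genes. Ccnd2, Rb1 and E2f3 were called lower, which is 6.38% beside 2.65% of all genes. Among genes with a mean signal of at least 6, 2 of 40 were called in either direction, beside 2.94% higher and 6.36% lower of all such genes. At an unadjusted p under 0.05 there were 8 higher (17.0%) and 7 lower (14.9%), beside 6.16% and 8.15% of all genes. With a mean signal of at least 6 these were 17.5% and 15.0% of 40 cell cycle genes, beside 11.0% and 16.7% of all such genes. None had an adjusted p under 0.05. This comparison shares its RNP-IPs with the first and is no separate evidence.

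Among the D-type and E-type cyclins and their kinases, 1 of 8 genes was called in the first comparison. Ccnd2, which activates Cdk4 and Cdk6 in G1, had signals of 8.12 and 7.97 with the induced label, 10.41 and 10.92 with the uninduced label and 10.23 in total RNA. The first pair lay close together and below all 3 controls, with a log2 difference of -2.47 (SE 0.24, adjusted p = 0.100), or 5.55-fold lower. All 5 probe sets of Ccnd2 with a mean signal of at least 5 were lower, from -2.47 to -0.87. Against total RNA the difference was -2.18 (adjusted p = 0.151), while the RNP-IPs labelled uninduced differed from total RNA by 0.44 (SE 0.27, adjusted p = 0.751).

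Ccnd1, the cyclin D that the study lists among earlier AUF1 targets, did not share this pattern. Its signals were 8.45 and 7.76 with the induced label, 8.05 and 9.48 with the uninduced label and 10.05 in total RNA. RNP-IPs of both labels overlapped, total RNA was the highest array, and the difference of -1.08 (SE 0.70, adjusted p = 0.685) was not called. Its 3 probe sets differed by -1.16 to -0.92. Against total RNA alone Ccnd1 was called lower in the RNP-IPs labelled induced (-1.94, adjusted p = 0.480). The call ended without either RNP-IP by its adjusted p, with differences of -1.59 without RNP-IP 2 and -2.28 without RNP-IP 1.

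Ccne2, which binds Cdk2 at the entry into S phase, was at 9.09 and 9.99 with the induced label, 7.82 and 7.40 with the uninduced label and 9.19 in total RNA. RNP-IPs labelled induced were thus higher than those labelled uninduced, by 1.93 (SE 0.41, adjusted p = 0.305, 3.81-fold), but stood at either side of total RNA. The call ended without RNP-IP 2 labelled induced (1.48). In the first comparison the difference of 1.40 (SE 0.67, adjusted p = 0.633) was not called.

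The kinases of this group went different ways, and none was called in the first comparison. Cdk6, a partner of the D-type cyclins, had signals of 6.23 and 5.51 with the induced label, 6.26 and 7.33 with the uninduced label and 8.45 in total RNA. The difference was -1.48 (SE 0.75, adjusted p = 0.653), and against total RNA alone it was -2.59 (adjusted p = 0.299), which was called. Cdk4, which has the same partners and is given here because of its replicates, was at 12.11 and 11.53, then 9.20 and 11.19, then 11.64. RNP-IP 1 labelled uninduced alone was low, all 3 probe sets differed by 1.14 to 1.49, and none was called. Cdk2 was at 6.96 in both RNP-IPs labelled induced and at 5.55 to 6.56 in the controls, with a difference of 0.87 (SE 0.33, adjusted p = 0.503). Cdk2 and Cdk4 were chosen after their values were seen, as were Ccna2, Cdkn2c and Pcna below and, given more briefly, Ccnt1, Cdk7, E2f1, Rbl1, Mad2l1, Plk1 and Ccnd3.

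Cdk1 was the gene called higher among the cyclins and kinases of S phase and mitosis. It is the kinase that drives entry into mitosis, and its signals were 12.65 and 11.38 with the induced label, 9.60 and 10.36 with the uninduced label and 10.44 in total RNA. Both RNP-IPs labelled induced were above every control, although they differed from each other by more than the controls did. The log2 difference was 1.88 (SE 0.51, adjusted p = 0.328), or 3.69-fold, and 2.04 (adjusted p = 0.428) against the RNP-IPs labelled uninduced alone. The latter call ended without RNP-IP 1 labelled induced (1.41) or RNP-IP 1 labelled uninduced (1.66). The single probe set of Cdk1 gives no second reading.

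Ccna2, the cyclin of S phase and G2, was at 9.57 and 9.50 with the induced label, 8.57 in both RNP-IPs with the uninduced label and 9.25 in total RNA. The groups did not overlap and replicates were close, but the difference of 0.74 (SE 0.26, adjusted p = 0.454) was under 3-fold. A further probe set of Ccna2 differed by -0.05. Ccnb2, a mitotic cyclin, was at 7.44 and 7.79, then 6.35 and 6.40, then 8.52. Its RNP-IPs labelled uninduced were called lower than total RNA (-2.14, SE 0.19, adjusted p = 0.187), also without either of them. The RNP-IPs labelled induced lay in between. Ccnf, a cyclin that serves in a ubiquitin ligase, was close to background, from 4.92 to 5.68.

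Ccnt2 encodes a T-type cyclin, which with Cdk9 forms the elongation factor P-TEFb and does not drive the cell cycle. Its 5 probe sets gave opposite readings. On the probe set with the highest mean (1453399_at) the signals were 7.84 and 8.97 with the induced label, 9.81 and 10.14 with the uninduced label and 7.69 in total RNA. RNP-IPs labelled uninduced were the high arrays here, and the first comparison gave -0.81 (SE 0.94, adjusted p = 0.786). 1427089_at and 1435445_at had the same order, with RNP-IPs labelled uninduced at 8.82 to 9.27 and all other arrays at 5.73 to 7.68. On 1427088_at the order was turned: 8.62 and 8.80 with the induced label, 6.64 and 7.05 with the uninduced label and 5.44 in total RNA. That probe set was called higher, by 2.34 (SE 0.55, adjusted p = 0.272), or 5.05-fold. The remaining probe set, 1452297_at, was near background on all arrays.

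**Figure D3:**
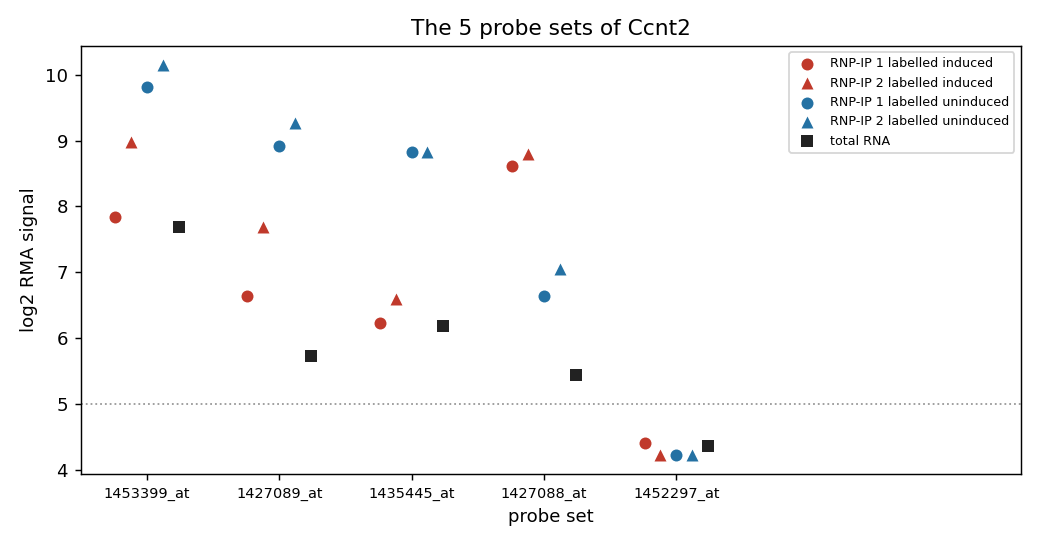
Log2 RMA signal (y axis) of the 5 probe sets of Ccnt2 (x axis) on each array, with red for the RNP-IPs labelled induced, blue for those labelled uninduced and black for total RNA, and a dotted line at 5. The blue points are highest on the 3 probe sets at the left, the red points are highest on 1427088_at (8.62 and 8.80), and 1452297_at is near background.

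Against the RNP-IPs labelled uninduced alone, 1427088_at was called higher by 1.87 (adjusted p = 0.166) and 1435445_at was called lower, at -2.42 (adjusted p = 0.126). Both differences pass 3-fold, so the direction of Ccnt2 between RNP-IPs depends on the probe set. All 4 probe sets above background were higher in the RNP-IPs labelled uninduced than in total RNA, by 1.40 to 3.36. On the main probe set that difference was 2.28 (SE 0.60, adjusted p = 0.406), and its call ended without either RNP-IP labelled uninduced, at an adjusted p of 0.512 or 0.522. 1427088_at and 1427089_at were designed from 1 source sequence. Which transcripts or transcript ends of Ccnt2 the probe sets read was not tested. Ccnt2 was the only cell cycle gene with probe sets past 3-fold in both directions within a comparison.

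Cdk9, the kinase partner of the T-type cyclins, was at 8.69 and 7.95 with the induced label, 5.93 and 9.05 with the uninduced label and 8.22 in total RNA. Its replicates labelled uninduced were far apart, at either side of all other arrays, and the difference of 0.59 (SE 1.08, adjusted p = 0.864) was not called. Ccnt1, the other T-type cyclin, ranged from 6.54 to 7.59, and Cdk7, which activates other CDKs and is part of the transcription machinery, from 7.86 to 9.27. None of the 4 genes of this group was called in the first comparison.

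Among the CDK inhibitors total RNA was the lowest array for 4 of 5 (Cdkn1b, Cdkn2a, Cdkn2b and Cdkn2c), and it was lowest for 3 genes of all other roles (Ccnt2, E2f5 and Wee1). Over all genes total RNA was lowest for 20.0%, and for 18.8% of those with a mean signal of at least 6. Cdkn2b, an inhibitor of Cdk4 and Cdk6, was at 11.01 and 11.16 with the induced label, 10.84 and 11.13 with the uninduced label and 9.25 in total RNA. RNP-IPs of both labels were level with each other and above total RNA, by 1.83 (SE 0.18, adjusted p = 0.124) for those labelled induced and 1.73 (SE 0.18, adjusted p = 0.203) for those labelled uninduced. Both were called, the latter no longer without RNP-IP 2 labelled uninduced (fold under 3). Between RNP-IPs Cdkn2b differed by 0.10 (SE 0.14, adjusted p = 0.790).

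Cdkn1b, which inhibits cyclin E and A complexes with Cdk2, was at 6.48 and 6.63 with the induced label, 7.57 and 6.98 with the uninduced label and 5.51 in total RNA. Those labelled uninduced were called higher than total RNA (1.76, SE 0.31, adjusted p = 0.306), a call that ended without RNP-IP 1 (1.47). In the first comparison its difference was -0.13 (SE 0.69), with the sign turning to 0.31 and 0.01 without RNP-IP 1 or 2 labelled uninduced.

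Cdkn2a encodes an inhibitor of Cdk4 and Cdk6 and, in another frame, an activator of p53. It is listed by the study among earlier AUF1 targets, and NIH/3T3 lines are generally described as lacking a functional Cdkn2a locus. The sources used here do not state whether these cells have it. Signals were 7.06 and 6.45 with the induced label, 5.73 in both RNP-IPs with the uninduced label and 4.58, near background, in total RNA. RNP-IPs labelled induced were the highest and total RNA the lowest, and the first comparison gave 1.42 (SE 0.48, adjusted p = 0.430), under 3-fold. Against total RNA the RNP-IPs labelled induced were called higher, at least 3.39-fold with total RNA set to the background limit (adjusted p = 0.174).

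Cdkn2c, a further inhibitor of Cdk4 and Cdk6, had the smallest adjusted p of the 47 genes in the first comparison but a fold under 3. It was at 10.05 and 10.17 with the induced label, 8.82 and 8.90 with the uninduced label and 8.75 in total RNA. Replicates and controls lay close together, and the difference was 1.29 (SE 0.07, adjusted p = 0.0702), or 2.44-fold.

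In the retinoblastoma and E2F group, 2 of 7 genes were called, both lower. Rb1, which holds E2F factors inactive until CDKs phosphorylate it, was at 3.95 and 4.57 with the induced label, 6.65 and 5.80 with the uninduced label and 6.51 in total RNA. RNP-IPs labelled induced were near background and the controls were not. The fitted difference was -2.06 (SE 0.36, adjusted p = 0.194), but with the dim arrays set to the background limit Rb1 was at least 2.50-fold lower, a bound under the 3-fold threshold. The other probe set of Rb1 was near background on every array. Against the RNP-IPs labelled uninduced alone the call of Rb1 ended without RNP-IP 1 labelled induced (-1.65) or RNP-IP 1 labelled uninduced (-1.54).

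E2f3, an activator of S-phase genes, was at 5.50 and 6.03 with the induced label, 7.65 and 8.47 with the uninduced label and 7.87 in total RNA. The groups stood well apart, with a difference of -2.23 (SE 0.33, adjusted p = 0.155), or 4.68-fold. A second probe set of E2f3, at 5.07 to 5.93 over all arrays, ran the other way by 0.59 (SE 0.12, adjusted p = 0.245). Against the RNP-IPs labelled uninduced alone the call on the first probe set ended without RNP-IP 1 labelled induced. The difference was then still past 3-fold (-2.03), and the adjusted p ended the call.

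E2f5, a repressive E2F, had 1 array that stood apart. Its signals were 10.59 and 8.19 with the induced label, 8.39 and 7.88 with the uninduced label and 7.55 in total RNA. RNP-IP 1 labelled induced alone was high, and the difference of 1.45 (SE 0.83, adjusted p = 0.683) was not called, while other probe sets of E2f5 differed by -0.59 and -0.37. E2f1 and Rbl1 were not called, at 0.08 and -0.66.

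No phosphatase or kinase that sets CDK phosphorylation was called in the first comparison. Cdc25a, which removes inhibitory phosphate from Cdk2, was at 7.18 and 5.73 with the induced label, 6.82 and 7.99 with the uninduced label and 7.30 in total RNA, so the groups overlapped. Wee1, the kinase that puts inhibitory phosphate on Cdk1, was at 10.28 and 9.78, then 9.78 in both RNP-IPs labelled uninduced, then 9.26. Cdc25c, the phosphatase that acts at the entry into mitosis, was at 6.34 and 7.16, then 5.76 and 6.68, then 8.35, with total RNA above all RNP-IPs. RNP-IPs of both labels were called lower than total RNA, at -2.13 with the uninduced label (adjusted p = 0.448) and -1.59 with the induced label (adjusted p = 0.457). These calls ended without RNP-IP 1 labelled uninduced (-1.67, adjusted p = 0.537) and without RNP-IP 1 labelled induced (-1.19).

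Bub1, a kinase of the spindle checkpoint, was the 1 of 7 mitotic genes called in the first comparison. It was at 6.53 and 6.87 with the induced label, 8.30 and 8.01 with the uninduced label and 9.20 in total RNA. The 3 kinds of sample formed separate steps, with a difference of -1.80 (SE 0.42, adjusted p = 0.270) in the first comparison, -2.50 (adjusted p = 0.123) against total RNA and -1.45 (adjusted p = 0.196, under 3-fold) against the RNP-IPs labelled uninduced. Its other probe set was near background.

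Cdc20, which activates the ubiquitin ligase that ends mitosis, was at 9.81 and 10.65 with the induced label, 10.61 and 10.67 with the uninduced label and 12.08 in total RNA. Total RNA alone was high, and the RNP-IPs labelled induced were called lower than it (-1.85, adjusted p = 0.274). Bub1b, a further checkpoint kinase, showed the same order, at 8.08 and 8.78, then 8.39 and 8.78, then 10.05 (-1.62, adjusted p = 0.298). The calls of Cdc20 and Bub1b ended without RNP-IP 1 labelled induced (-1.43 and -1.27). Aurka, the kinase of centrosomes and spindle poles, was at 8.13 and 7.25, then 4.96 and 6.90, then 8.45, and the spread of its replicates left it uncalled at 0.92 (SE 1.17, adjusted p = 0.804). Mad2l1, a checkpoint protein, stayed between 10.42 and 10.88 on all arrays.

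Total RNA was the highest of the 5 arrays for 7 of the 8 replication and proliferation genes (all but Pcna). It was also highest for 5 of the 7 mitotic genes (Aurka, Aurkb, Bub1, Bub1b and Cdc20). Over all genes it was highest for 21.3%, and for 30.0% of those with a mean signal of at least 6. Mcm5, a subunit of the MCM helicase that opens DNA at origins, was at 7.82 and 8.65 with the induced label, 9.64 and 9.99 with the uninduced label and 11.70 in total RNA. Here too the samples formed 3 steps, with a difference of -2.21 (SE 0.76, adjusted p = 0.446) in the first comparison and -3.47 (SE 0.46, adjusted p = 0.157), or 11.1-fold, against total RNA. RNP-IPs labelled uninduced were below total RNA by a log2 difference of -1.89 (adjusted p = 0.382), a call that ended without RNP-IP 1 (-1.72, adjusted p = 0.533). A dimmer probe set of Mcm5 was at 3.49 to 6.53 and differed from total RNA by -2.34 and -2.06 for the 2 labels, without a call.

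Mcm2 did not separate the RNP-IPs. It was at 8.45 and 8.71 with the induced label, 8.30 and 8.29 with the uninduced label and 10.46 in total RNA. RNP-IPs of both labels were called lower than total RNA, at -1.88 (SE 0.15, adjusted p = 0.110) and -2.17 (SE 0.15, adjusted p = 0.167), and differed from each other by 0.29 (SE 0.12, adjusted p = 0.575). A second probe set of Mcm2 differed from total RNA by -2.27 and -2.66, and both differences were called. Mcm6 was at 8.63 and 9.58, then 10.05 and 9.86, then 11.02, and the RNP-IPs labelled induced were called lower than total RNA (-1.92, adjusted p = 0.302), which ended without RNP-IP 1 (-1.45). Mcm3 was at 7.53 and 6.93, then 4.81 and 6.73, then 7.93, with RNP-IP 1 labelled uninduced alone near background and no call.

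Cdc6, which loads the MCM helicase onto origins, had RNP-IPs labelled uninduced (6.56 and 6.98) below both those labelled induced (8.03 and 7.92) and total RNA (8.66). RNP-IPs labelled uninduced were called lower than total RNA (-1.88, SE 0.22, adjusted p = 0.227), with or without either of them. Top2a, which untangles replicated DNA, was at 9.22 and 9.24 with the induced label, 10.26 and 11.05 with the uninduced label and 11.29 in total RNA. Its difference was -1.64 (SE 0.35, adjusted p = 0.252), or 3.11-fold, just past the threshold. The proliferation marker Mki67 had the same order at 9.26 and 9.19, then 9.89 and 10.47, then 11.02, and was called against total RNA alone (-1.79, adjusted p = 0.200). Pcna, the sliding clamp of DNA polymerase, was at 11.88 and 11.48, then 10.69 and 11.33, then 11.27, and was not called in any comparison.

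Over all roles, total RNA was the highest of the 5 arrays for 20 of 47 cell cycle genes (42.6%), beside 21.3% of all genes. Among genes with a mean signal of at least 6 this held for 18 of 40, beside 30.0%. In the RNP-IPs labelled induced, 14 genes (29.8%) were called lower than total RNA, beside 4.50% of all genes, and 2 (Cdkn2a and Cdkn2b, 4.26%) were called higher, beside 2.03%. With a mean signal of at least 6 these were 13 of 40 lower (32.5%), beside 9.86%, and 1 higher (2.50%), beside 4.55%. The lower genes were Ccnd1, Ccnd2, Cdk6, Rb1, E2f3, Cdc25c, Bub1, Bub1b, Cdc20, Mki67, Mcm2, Mcm5, Mcm6 and Top2a, and their number was 9 without RNP-IP 1 labelled induced.

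In the RNP-IPs labelled uninduced, 5 genes were called lower than total RNA (Ccnb2, Cdc25c, Cdc6, Mcm2 and Mcm5, 10.6%), beside 1.36% of all genes. Ccnt2, Cdkn1b and Cdkn2b were called higher (6.38%), beside 1.26%. With a mean signal of at least 6 these were 12.5% of 40 lower, beside 2.56%, and 3 of 40 higher, beside 3.03%. Without RNP-IP 1 labelled uninduced 3 genes were called lower, and without RNP-IP 2 there were 13. Both comparisons rest on a single total RNA array, taken to vary as the RNP-IPs do, so they are not independent of each other. No cell cycle gene had an adjusted p under 0.05 in either, and at an unadjusted p under 0.05 there were 5 higher (10.6%) and 13 lower (27.7%) for the RNP-IPs labelled induced, beside 6.77% and 10.5% of all genes. For those labelled uninduced there were 4 higher (8.51%) and 10 lower (21.3%), beside 5.56% and 7.44%. Of all genes with a mean signal of at least 6, 11.2% were higher and 17.4% lower at this p with the induced label, and 9.92% and 10.9% with the uninduced label. The 40 cell cycle genes with such a mean had 10.0% higher and 30.0% lower with the induced label, and 7.50% and 25.0% with the uninduced label. A signal below total RNA is a smaller share of that mRNA in RNA from the beads, not a measure of its level in the cells. With a single total RNA array whose induction is not stated, retention on the beads and level in the cells cannot be told apart. Signals came from whole cultures, so the share of cells in each phase of the cycle was not read either.

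**Figure D4:**
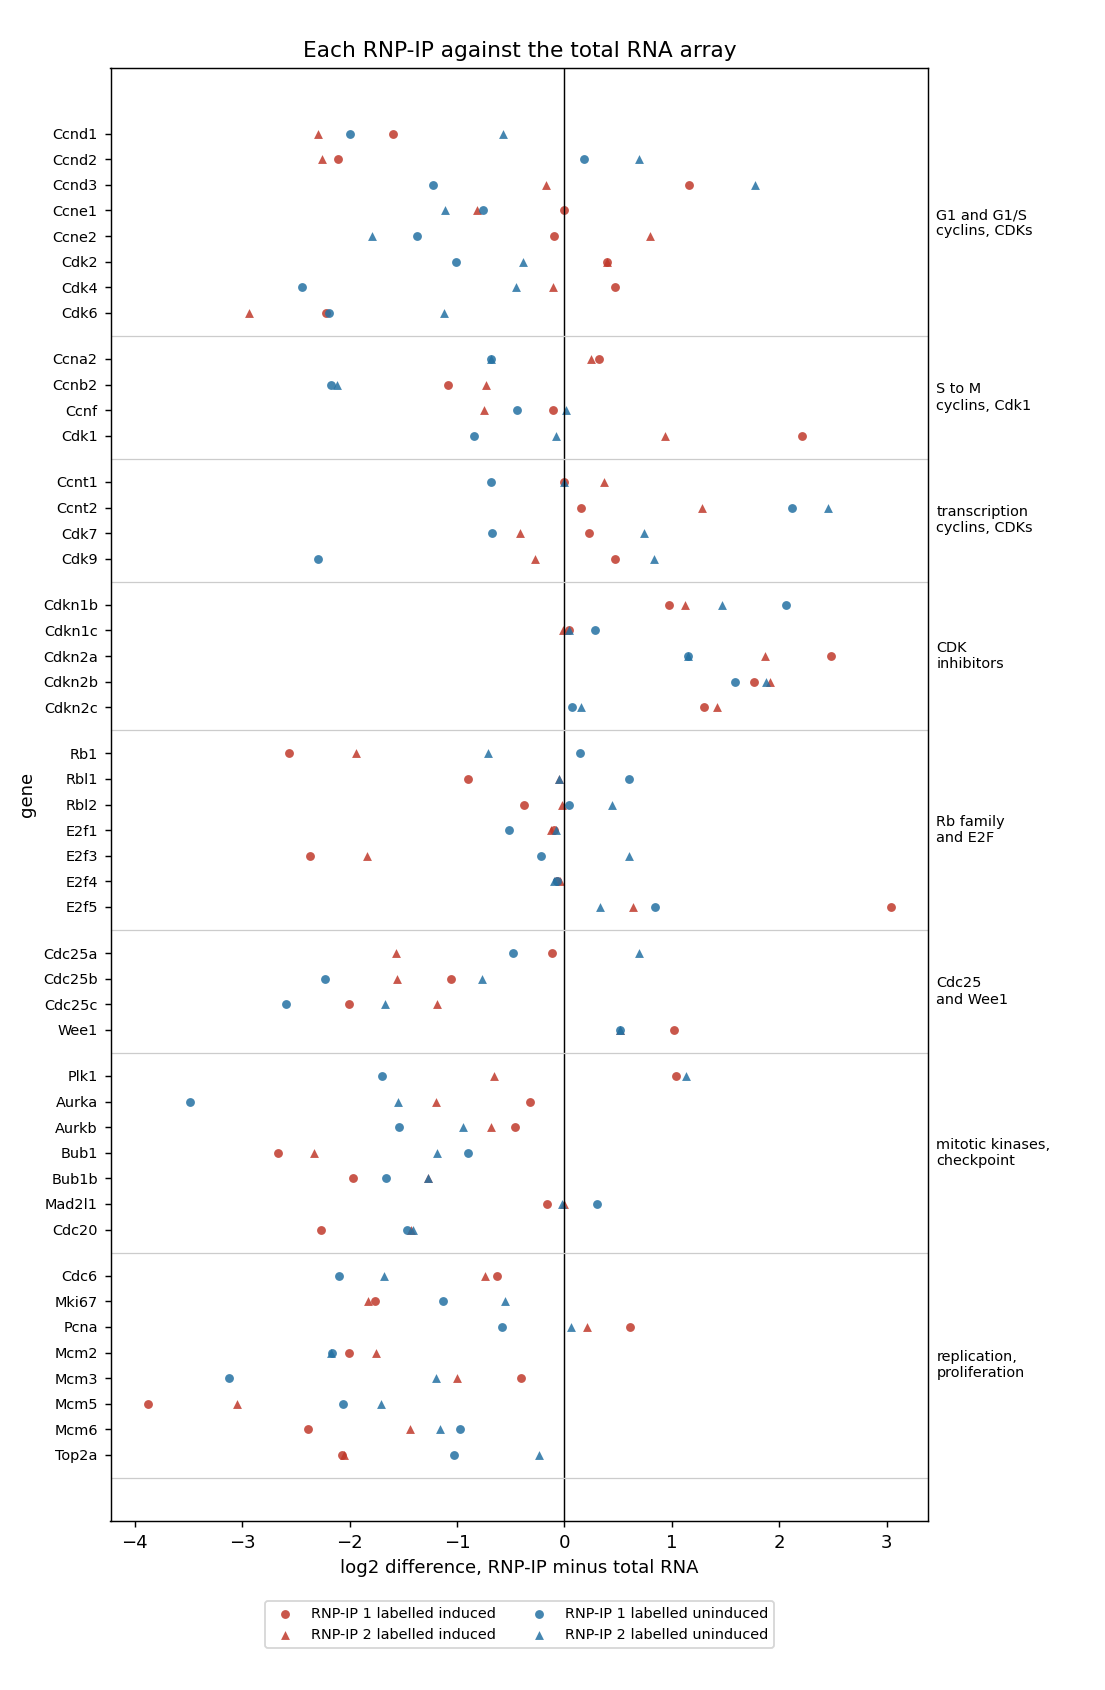
Log2 difference (x axis) of each RNP-IP from the single total RNA array for the 47 cell cycle genes (y axis, by role), with red for the RNP-IPs labelled induced and blue for those labelled uninduced (circle for replicate 1, triangle for replicate 2). Points left of 0 are below total RNA. All points of the replication genes except Pcna lie to the left, and all points of Cdkn1b, Cdkn2a, Cdkn2b and Cdkn2c lie to the right.

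RNP-IP 1 labelled uninduced was below its replicate for many cell cycle genes. The median difference between the 2 was -0.41 over the 47 genes and 0.04 over all genes, and -0.47 and -0.01 with a mean signal of at least 6. RNP-IP 1 was lower than RNP-IP 2 by over 1 for 11 genes (Ccnd1, Ccnd3, Cdk4, Cdk6, Cdk7, Cdk9, Cdc25a, Cdc25b, Plk1, Aurka and Mcm3), or 23.4%, beside 5.89% of all genes, and higher by over 1 for 0, beside 0.846%. With a mean signal of at least 6 it was lower by over 1 for 10 of 40 cell cycle genes (25.0%), beside 12.9% of all such genes. Housekeeping genes outside the list were lower there too, with Gapdh at 9.70 and 12.11 in the pair and Rplp0 at 11.50 and 13.55. RNP-IP 2 labelled induced was likewise below its replicate for them, with Gapdh at 9.71 beside 11.90 and Rplp0 at 11.88 beside 13.21. The RNP-IPs labelled induced were apart by over 1 for 6 cell cycle genes, with a median difference of 0.05. In the uninduced pair Plk1, a mitotic kinase, was at 5.57 and 8.40, and Ccnd3, a D-type cyclin, at 5.32 and 8.31. RNP-IP 1 labelled uninduced is also the array with the lowest signal at the 5′ end of Gapdh (3.65) and of beta-actin (5.83). The part of this in the gene differences was not tested. Without RNP-IP 1 labelled uninduced several genes changed sign in the first comparison. Mcm3 (to -0.10), Cdk9 (to -0.31), Ccnd3, Plk1 and Cdkn1b were among them. There were then 0 genes called higher and 7 lower.

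Probe sets of 1 gene gave a further check. Of 20 genes with at least 2 probe sets of a mean signal of at least 5, all probe sets ran in 1 direction for 13 in the first comparison and in both directions for 7. Ccnd1, Ccnd2, Cdk4, Cdc20 and Mcm2 were among the former, and Ccna2, Ccnt2, Cdk7, Rbl1, E2f3, E2f5 and Aurkb were the latter. A second probe set of Top2a, at 5.16 to 5.39 on all arrays, differed by -0.02. Where all probe sets of a gene were averaged, none of the 6 lower calls was kept. The averages took in probe sets near background, such as the second ones of Rb1 and Bub1. These draw a difference towards 0, so the loss of calls is partly fixed by them. Of the named genes, Cdk4, Cdc25c, Cdc20, Mcm5 and Mcm6 were read with an _x_at probe set, a type whose probes can match more than 1 transcript. Bub1b, Mcm2 and Mcm3 were read with an _s_at probe set, a type that can be shared by transcripts too.

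**Figure D5:**
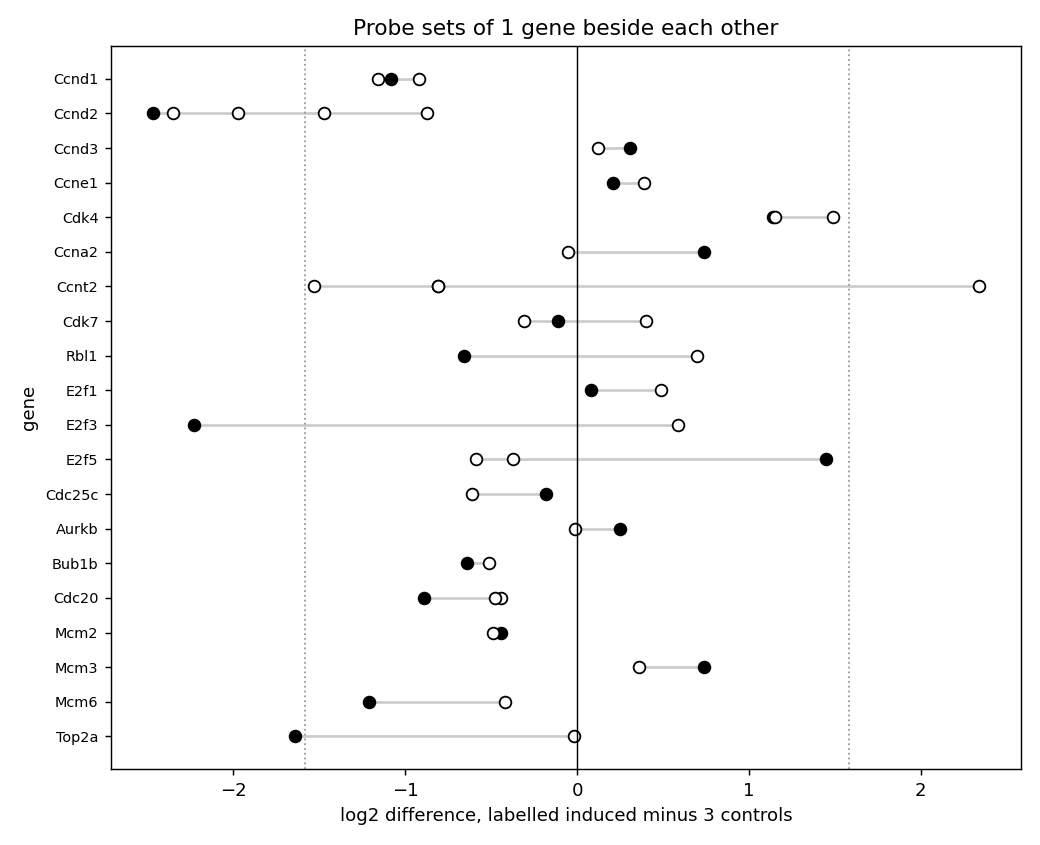
Log2 difference (x axis) between the RNP-IPs labelled induced and the 3 controls for every probe set with a mean signal of at least 5, for the 20 genes with several such probe sets (y axis). Filled circles are the probe sets used for the gene, open circles its others, and dotted lines mark 3-fold. All 5 circles of Ccnd2 lie left of 0, while Ccnt2 spans from -1.53 to 2.34.

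Beside these genes, 108 further cell cycle genes were looked up (other cyclins and CDK partners, P-TEFb partners, E2F and DREAM factors, replication genes, ubiquitin ligases and mitotic genes), of which 106 were measured. In the first comparison 2 were called higher (1.89%) and 6 lower (5.66%), beside 1.32% and 2.36% of all genes, with a median log2 difference of -0.26. With a mean signal of at least 6 these were 2.30% and 6.90% of 87, beside 2.72% and 5.78%. Hexim1, which holds P-TEFb inactive, was at 9.08 and 8.12 with the induced label, 5.81 and 6.66 with the uninduced label and 6.19 in total RNA (2.39, SE 0.42, adjusted p = 0.193). Ube2c, the ubiquitin-conjugating enzyme of the anaphase-promoting complex, was called higher at 1.66 (SE 0.47, adjusted p = 0.347). The lowest were Cdc14a, a mitotic phosphatase (-2.74, SE 0.43, adjusted p = 0.164), Lin54, a DNA-binding part of the DREAM complex (-2.72, SE 0.53, adjusted p = 0.223), and Plk4, the kinase of centriole duplication (-2.52, SE 0.78, adjusted p = 0.389). For Cdc14a and Lin54, RNP-IP 1 labelled induced was near background (4.89 and 4.66) and RNP-IP 2 was not (5.74 and 6.06). Against total RNA, 14 of the 106 (13.2%) were called lower and 3 (2.83%) higher with the induced label, beside 4.50% and 2.03% of all genes. With the uninduced label 6 (5.66%) were called lower and 1 (0.943%) higher, beside 1.36% and 1.26%. Of the 87 with a mean signal of at least 6, 14.9% were called lower with the induced label and 5.75% with the uninduced label, beside 9.86% and 2.56%.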

How the data were processed

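RNA of 4 RNP-IPs and 1 total RNA sample was amplified, labelled and hybridized to Affymetrix Mouse 430 2.0 GeneChips, 5 arrays in all. The authors normalized the signals by RMA (version not given in the sources used here) and deposited the log2 signals of 45101 probe sets (64 are array controls), used here as they are. Arrays carry no read depth, and their number limits the precision.

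Gene names came from an array annotation of 2016, with symbols brought up to date by RefSeq. Of the probe sets 34958 had 1 gene, 932 several and 9211 none. Limma 3.58.1 in R 4.3.3 was fitted to all probe sets (lmFit, eBayes), with 2 RNP-IPs labelled induced against 3 controls (3 residual degrees of freedom), and as a fit of 3 groups for the other comparisons (2 residual degrees of freedom). The Benjamini-Hochberg adjustment ran over all probe sets. Calls needed a fold of 3 or more with an adjusted p below 0.5. Where a whole side was below 5, the fold is a bound with each such array set to 5 or to its own value if higher. The script was tested on simulated data. The cell cycle genes and the lists were chosen with earlier results of these data known. Genes named were those called in any comparison, the highest and lowest of each role group, those the study lists, those with opposite probe sets, and the 3 highest and 3 lowest called of the other cell cycle genes. By this rule 29 of the 47 genes were named, and the others given with values were chosen after their values were seen. Alternatives were median centring, cyclic loess, a minimum mean signal of 6, other probe sets per gene, a variance trend, other controls, single arrays left out, and the replicate number as a block. No sequences were used here.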

Additional observations from a re-analysis of the deposited data

How the results depend on the processing

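With the replicate number as a block over the 4 RNP-IPs, which leaves out total RNA, 0 genes were called higher and 2 lower. Without the block, 2 were higher and 3 lower against the RNP-IPs labelled uninduced alone. The first comparison had 1 and 6, but its controls include total RNA, so it differs from the blocked fit by more than the block. The numbers do not pair the RNP-IPs: deviations of same-numbered RNP-IPs correlated at -0.4996 over all probe sets, and at -0.6691 over those with a mean signal of at least 6. A crossed pairing, added after seeing the data, gave 4 higher and 3 lower. With the RNP-IPs labelled uninduced alone as controls, the first comparison is the same as the second (2 higher and 3 lower). In the first comparison there were 2 higher when each gene took its probe set of largest fold. With the mean of all probe sets of a gene, near-background ones included, 0 were lower. With a minimum mean signal of 6, the RNP-IPs labelled uninduced alone as controls gave 4 higher, and the RNP-IPs labelled uninduced had 8 lower than total RNA. Leaving out single arrays gave 0 to 3 higher and 3 to 7 lower in the first comparison, 1 to 6 higher and 1 to 6 lower against the RNP-IPs labelled uninduced alone, 1 higher and 3 to 13 lower for the RNP-IPs labelled uninduced against total RNA, and 2 to 4 higher and 9 to 13 lower for those labelled induced against total RNA. Median centring, cyclic loess and a variance trend kept the counts of the first comparison within 1. The sign of some uncalled genes turned. Ccnt2 went to 2.34 when it took its probe set of largest fold. Cdc25c went to 0.53 and Mcm2 to 0.29 once total RNA was out of the controls. The replicate block, the RNP-IPs labelled uninduced alone and the fit without total RNA all give this same difference by construction. They count as 1 alternative. Leaving out single arrays gave ranges of -0.60 to 0.03 for Ccnf, -0.31 to 1.25 for Cdk9, -0.72 to 0.31 for Cdkn1b, -0.76 to 0.53 for Cdc25c, -0.80 to 0.29 for Mcm2 and -0.10 to 1.46 for Mcm3. Ccnd3, Plk1 and E2f1 turned as well without RNP-IP 1 labelled uninduced. The cause was not tested.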
